A study of Mus musculus with 6 samples.

Results

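The 10 transcription factors described here form the core of the pluripotency network of mouse embryonic stem (ES) cells, which grow in culture and can give rise to every tissue of the embryo. The members were Pou5f1, Sox2, Esrrb, Tfcp2l1, Nr5a2, Prdm14, Tbx3, Zfp42, Nr0b1 and Sall4. They were taken by name from the probe sets annotated with exactly 1 gene symbol, and all 10 of 10 were found among 19938 genes, each with 1 probe set. The tested cells were Satb1-/- ES cells, which lack the chromatin-organising DNA-binding protein Satb1, on 3 arrays labelled clone 1-1, 1-2 and 2-1. They were set against WT ES cells, called control in the labels, on 3 arrays numbered 1, 2 and 3. Both genotypes carried a HygroTK reporter in the Oct4 (Pou5f1) locus, were kept in serum medium with LIF on irradiated feeder cells, and were grown for 3 days with hygromycin, so that surviving cells were those with an active Oct4 locus. Most feeders were removed by settling before RNA was taken. The labels do not give the parental line, the deleted part of Satb1 or what the first clone number stands for, and they do not say that the arrays within a genotype are separate cultures. P-values therefore measure only how far these arrays scatter, and some of that scatter may be technical.

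Pou5f1 and Sox2 bind DNA together and hold the centre of the network, whereas Esrrb, Nr5a2, Tfcp2l1, Tbx3 and Prdm14 are auxiliary factors of the naive state, the state of the early epiblast. These 5 are also the factors that passed the threshold below, so their rise cannot be read as a result about the naive state. Zfp42, Nr0b1 and Sall4 were not placed in this class, which serves as background only. The naive factors respond to outside signals: LIF acts through STAT3 on Tfcp2l1, and Wnt signalling relieves repression of Esrrb, Nr5a2 and Tfcp2l1 by Tcf7l1. They vary from cell to cell in serum cultures, in which Pou5f1 is comparatively even.

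Values are log2 expression per probe set as normalised by the authors with RMA, so that a difference of 1 is a 2-fold change. Levels of different probe sets are not comparable, so the factors are compared by their differences between genotypes. Pairs of arrays correlated over the probe sets with Pearson's r of 0.989 to 0.991 in Satb1-/-, 0.975 to 0.986 in WT and 0.981 to 0.987 across genotypes. WT arrays scattered more than Satb1-/- arrays on both leading principal components over all genes. On the first, with 36.2% of the variance, the Satb1-/- arrays lay at -15.5 to -12.7 and WT replicates 1, 2 and 3 at 26.7, 10.6 and 3.7. On the second, with 29.4%, WT replicate 3 stood apart from the other arrays (29.3, against -13.1 to -0.5). Quality weights for the arrays were 1.08 to 1.99 in Satb1-/-, and 0.46, 1.71 and 0.45 for WT replicates 1, 2 and 3. The 7 defining ES cell markers were Pou5f1, Sox2 and Zfp42, which are among the factors described here, and Nanog, Dppa5a, Utf1 and Tdgf1. Their mean levels were 10.14 to 10.18 on Satb1-/- arrays and 9.84 to 10.09 on WT arrays. Only 3 of the 7 were higher on average in Satb1-/-, with a median difference of -0.01, and Nanog had the largest (1.09). Satb1 read 4.47 ± 0.10 in Satb1-/- and 5.14 ± 0.16 in WT (SD, n = 3 each), and the labels do not say whether its probe set covers deleted sequence. RNA came from whole cultures, so fewer cells expressing a factor and less RNA per cell cannot be told apart.

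Of the 10 factors, 5 rose in Satb1-/- cells and 0 fell (limma, adjusted p under 0.05, with Benjamini-Hochberg adjustment over the 19938 genes). Tbx3, Nr5a2, Prdm14, Tfcp2l1 and Esrrb rose, by 3.02-fold, 2.49-fold, 2.12-fold, 1.85-fold and 1.47-fold. Nr0b1, Sox2, Sall4, Zfp42 and Pou5f1 did not pass the threshold, with folds of 1.69, 1.23, 1.06, 0.93 and 0.76. Among all genes tested 0.923% passed as higher and 0.476% as lower. The groups of 6 factors did not overlap with Satb1-/- higher, and those of 1, Pou5f1, with Satb1-/- lower, where 8.18% and 6.97% of all genes behaved so. The median difference was 0.66 log2 over the 10 factors, against -0.00 over all genes and 0.02 over the genes above the median level, where all 10 factors lie. Genes above the median level passed more often: of 9969, 169 passed as higher and 84 as lower by limma. The groups of 1166 of them did not overlap with Satb1-/- higher, and those of 824 with Satb1-/- lower. At an unadjusted p under 0.05, 8 of the 10 factors differed, Pou5f1 being the lower one. By that measure 10.5% of all genes differed, and 1640 of the 9969 above the median level. Because the factors were chosen with earlier results of these data known, the counts of the factors describe them and are not a test of the group.

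The count of 5 depended on single arrays: it was 2 without Satb1-/- replicate 1-2 or 2-1, 3 without WT replicate 1, and 6 without WT replicate 3. When all 35557 probe sets were tested in place of 1 for each gene, it was 1 (Nr5a2, adjusted p = 0.0449). With clones 1-1 and 1-2 averaged as 1 sample, the count was 4, and Esrrb did not pass (limma adjusted p = 0.171).

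**Figure D1:**
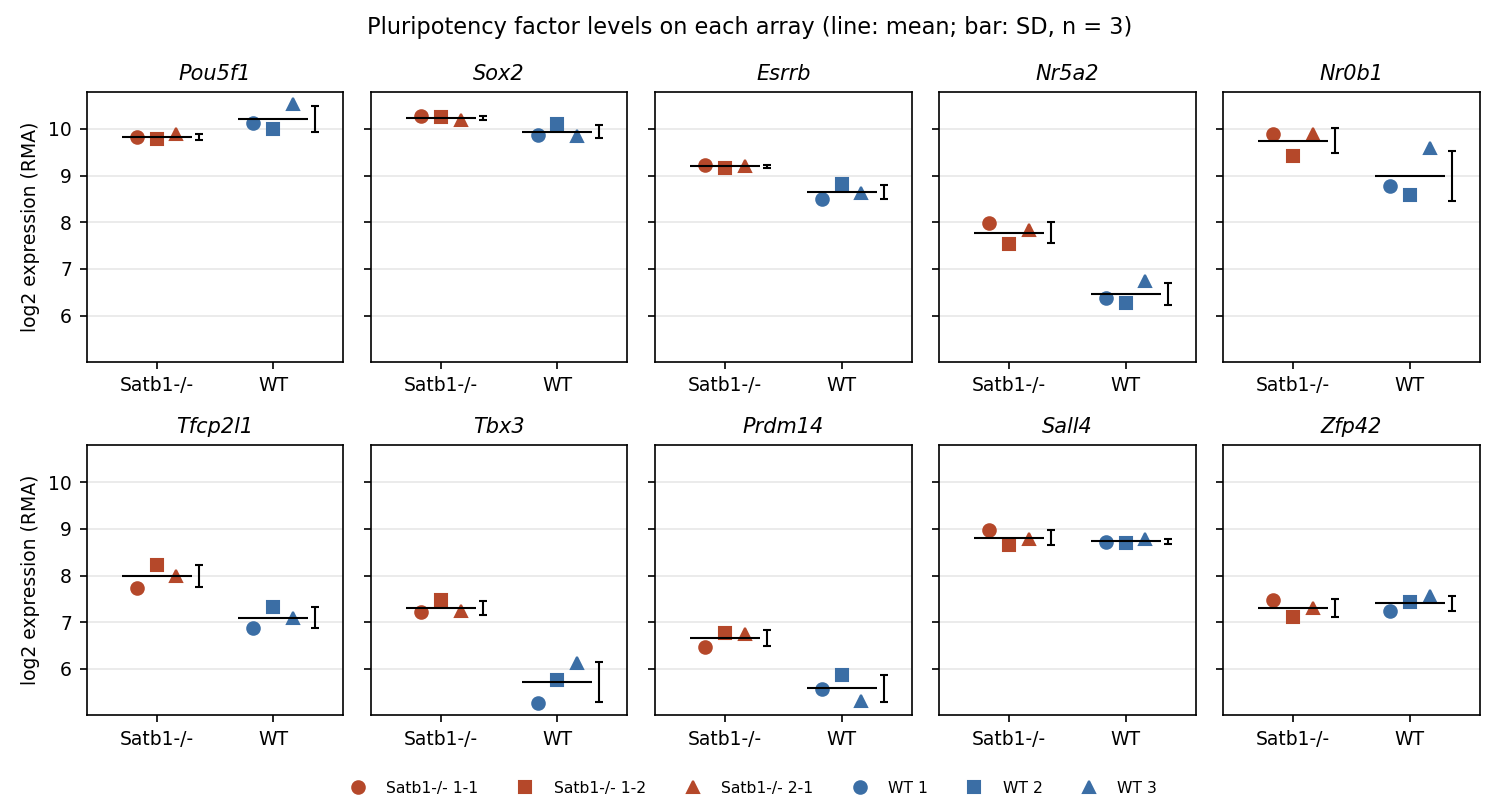
Log2 expression (RMA) of the 10 factors on each array, Satb1-/- left and WT right; points are arrays, horizontal lines group means and bars SD (n = 3). Tbx3, Nr5a2, Prdm14, Tfcp2l1, Esrrb and Sox2 lie higher on all 3 Satb1-/- arrays, Pou5f1 lies lower on all 3, and the groups of Nr0b1, Sall4 and Zfp42 overlap.

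The stretch of DNA just before the start of a gene is where general promoter factors bind, and some of the factors bind there in one another's genes. The RefSeq promoter table (GRCm38.p6) had windows for 7 of the 10 factors. The 6 outermost windows below, 250 bases or, for Tfcp2l1, 228 bases before the outermost annotated start, are shown to set factors that rose (Nr5a2, Esrrb and Tfcp2l1) beside factors that did not pass (Pou5f1, Sox2 and Zfp42). They are printed 5′ to 3′ on the gene's own strand, in the order chr1:136960449-136960698 (minus strand), chr12:86360867-86361116 (plus), chr1:118627695-118627922 (plus), chr17:35505782-35506031 (plus), chr3:34649745-34649994 (plus) and chr8:43307010-43307259 (minus). Capitals mark matches, on either strand, to 7 simplified motifs: the POU octamer ATTTGCAT, the SOX site CATTGTT, the ESRRB site TCAAGGTCA, the NR5A site CAAGGCCA, the TFCP2L1 site CCAGNNNNNNCCAG, the T-box site AGGTGTGA and the GC box GGGNGGGGC.
Nr5a2: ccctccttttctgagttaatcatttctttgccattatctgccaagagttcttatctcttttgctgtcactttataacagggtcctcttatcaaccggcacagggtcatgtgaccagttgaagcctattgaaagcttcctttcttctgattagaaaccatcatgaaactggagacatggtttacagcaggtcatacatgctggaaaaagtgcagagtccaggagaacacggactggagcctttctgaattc
Esrrb: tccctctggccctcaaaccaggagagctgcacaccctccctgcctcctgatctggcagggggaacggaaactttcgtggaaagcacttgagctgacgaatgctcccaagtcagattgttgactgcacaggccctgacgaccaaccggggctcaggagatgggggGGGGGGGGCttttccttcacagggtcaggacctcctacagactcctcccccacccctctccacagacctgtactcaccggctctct
Tfcp2l1: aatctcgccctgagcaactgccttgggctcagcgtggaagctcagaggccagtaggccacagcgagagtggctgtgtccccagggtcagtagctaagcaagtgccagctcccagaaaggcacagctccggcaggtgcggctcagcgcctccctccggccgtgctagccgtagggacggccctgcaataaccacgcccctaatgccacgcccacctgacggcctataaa
Pou5f1: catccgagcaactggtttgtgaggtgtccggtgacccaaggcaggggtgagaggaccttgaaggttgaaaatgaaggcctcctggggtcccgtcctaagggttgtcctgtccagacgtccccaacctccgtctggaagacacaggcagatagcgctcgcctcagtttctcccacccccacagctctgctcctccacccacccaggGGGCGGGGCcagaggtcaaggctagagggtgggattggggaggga
Sox2: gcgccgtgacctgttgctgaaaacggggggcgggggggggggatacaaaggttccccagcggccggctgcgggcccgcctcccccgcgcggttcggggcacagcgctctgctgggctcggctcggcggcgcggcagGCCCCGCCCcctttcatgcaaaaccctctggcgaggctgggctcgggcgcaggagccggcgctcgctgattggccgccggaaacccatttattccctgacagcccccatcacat
Zfp42: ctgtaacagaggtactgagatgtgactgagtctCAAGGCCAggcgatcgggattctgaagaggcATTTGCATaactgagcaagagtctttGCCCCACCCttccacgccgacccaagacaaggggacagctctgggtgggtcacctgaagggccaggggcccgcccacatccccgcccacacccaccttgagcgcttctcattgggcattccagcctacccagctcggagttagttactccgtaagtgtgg

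The windows of the factors that rose shared no match. The Zfp42 window held the octamer at positions -186 to -179 from the start and the NR5A site at -217 to -210, besides a GC box. Esrrb, Pou5f1 and Sox2 each held 1 GC box and no other match, and Nr5a2 and Tfcp2l1 held 0 matches, as did the seventh window, that of Nr0b1, which is not printed. No matches overlapped. Of 32851 promoter windows in the table, 1.6% held the octamer, 1.99% the NR5A site and 15.52% the GC box. The ESRRB, TFCP2L1, T-box and SOX letters, found in 0.39%, 2.78%, 1.12% and 3.29% of all windows, were in none of the 6. The windows also differed in base composition. Nr5a2 had 43.2% G and C and 2 CpG pairs, whereas Sox2 had 72.0% and 27, against medians of 52.4% and 6 over all windows. Tfcp2l1 (63.6%), Pou5f1 (62.0%), Esrrb (60.8%) and Zfp42 (58.4%) lay between them. A match is a description of letters and not a binding site, and enhancers, where most binding of these factors is known, lie outside the windows.

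Pou5f1, the POU-domain factor whose locus carries the selection marker, read 9.82, 9.78 and 9.90 on Satb1-/- arrays 1-1, 1-2 and 2-1, against 10.13, 10.00 and 10.53 on WT arrays 1, 2 and 3. All 3 Satb1-/- values lay below all 3 WT values, and WT replicate 3 was the highest. The difference was -0.39 (SE 0.14, 95% interval -0.70 to -0.08, limma adjusted p = 0.309). Without WT replicate 3 the difference was -0.23, a value moved by more than 1.5 times.

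Sox2, the HMG-box partner of Pou5f1, read 10.28, 10.25 and 10.19 on Satb1-/- arrays, against 9.87, 10.10 and 9.85 on WT arrays. Its groups did not overlap either, but lay the other way round from those of Pou5f1, with 0.09 log2 between the lowest Satb1-/- and the highest WT array. The difference was 0.30 (SE 0.11, 95% interval 0.06 to 0.54, limma adjusted p = 0.316). Neither gene of the pair passed the threshold in any of the 14 alternatives run.

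Among the nuclear receptors, Nr5a2 and Esrrb rose, whereas Nr0b1 had a larger difference than Esrrb and did not pass. Nr5a2 (LRH-1) is an orphan receptor that binds regulatory regions of Pou5f1. It read 7.98, 7.53 and 7.83 on Satb1-/- arrays, against 6.38, 6.27 and 6.74 on WT arrays. The lowest Satb1-/- array lay 0.79 log2 above the highest WT array, WT replicate 3. The difference was 1.32 (SE 0.15, 95% interval 0.97 to 1.66, limma adjusted p = 0.00209). It is the factor whose call held in all 14 alternatives, with adjusted p-values up to 0.0449.

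Esrrb, an orphan receptor that acts downstream of Nanog and Wnt signalling, read 9.23, 9.17 and 9.20 on Satb1-/- arrays, against 8.50, 8.82 and 8.62 on WT arrays. The Satb1-/- arrays spanned 0.06 log2, the narrowest span of the 10 factors in that genotype, and the WT arrays 0.32. The difference was 0.56 (SE 0.11, 95% interval 0.31 to 0.81, limma adjusted p = 0.0435). The call ended in 7 of 14 alternatives, among them leaving out WT replicate 1 (adjusted p = 0.106) or any one Satb1-/- array (0.166 to 0.209), with differences of 0.48 to 0.57 in these 4.

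Nr0b1 (DAX1), an unusual receptor that lacks the zinc-finger DNA-binding domain and binds to Nr5a2 and Pou5f1 proteins, read 9.90, 9.43 and 9.90 on Satb1-/- arrays, against 8.78, 8.59 and 9.60 on WT arrays. WT replicate 3 lay above Satb1-/- array 1-2, and the WT arrays spanned 1.00 log2, the widest span of the 10. The difference was 0.75 (SE 0.23, 95% interval 0.23 to 1.28, limma adjusted p = 0.206). Without WT replicate 3 it was 1.06 and passed (adjusted p = 0.0043), as it did with arrays weighted by quality (0.99, adjusted p = 0.0165).

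Tfcp2l1, Tbx3 and Prdm14, which belong to 3 other families, all rose. Tfcp2l1, a grainyhead-family factor and target of LIF and STAT3, read 7.74, 8.22 and 8.00 on Satb1-/- arrays, against 6.88, 7.32 and 7.10 on WT arrays. The groups lay 0.42 log2 apart. The difference was 0.88 (SE 0.15, 95% interval 0.55 to 1.22, limma adjusted p = 0.0182). It missed the threshold without Satb1-/- replicate 1-2 or 2-1 or WT replicate 1 (adjusted p = 0.107, 0.111 and 0.073) and over all probe sets (0.137).

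Tbx3, a T-box factor that can sustain self-renewal without LIF when it is overexpressed, had the largest difference of the 10, and ranked 7 of 19938 genes by difference. It read 7.22, 7.48 and 7.23 on Satb1-/- arrays, against 5.27, 5.76 and 6.12 on WT arrays. The groups lay 1.10 log2 apart, and the WT arrays spanned 0.85. The difference was 1.59 (SE 0.19, 95% interval 1.18 to 2.01, limma adjusted p = 0.00215). The call held without any one array (adjusted p up to 0.02) and ended over all probe sets (0.0526).

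Prdm14, a PR-domain zinc-finger protein known to repress FGF receptor signalling and Dnmt3b in ES cells, read 6.47, 6.77 and 6.75 on Satb1-/- arrays, against 5.56, 5.87 and 5.30 on WT arrays. Here WT replicate 3, the highest WT array for Tbx3, Nr5a2 and Nr0b1, was the lowest. The difference was 1.09 (SE 0.15, 95% interval 0.75 to 1.43, limma adjusted p = 0.00622). It narrowly missed the threshold without Satb1-/- replicate 1-2 or 2-1 (adjusted p = 0.0514 and 0.0531) and over all probe sets (0.0797).

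The zinc-finger factors Sall4 and Zfp42 did not pass in any of the alternatives. Sall4, which sustains Pou5f1 expression and ES cell proliferation, read 8.98, 8.66 and 8.79 on Satb1-/- arrays, against 8.71, 8.69 and 8.79 on WT arrays. The groups overlapped, and the WT arrays spanned 0.10 log2, the narrowest WT span of the 10. The difference was 0.08 (SE 0.11, 95% interval -0.17 to 0.33, limma adjusted p = 0.914). Zfp42 (Rex1), a widely used marker of undifferentiated cells, read 7.48, 7.11 and 7.31 on Satb1-/- arrays, against 7.24, 7.44 and 7.56 on WT arrays. The difference was -0.11 (SE 0.13, 95% interval -0.40 to 0.18, limma adjusted p = 0.884), and the groups overlapped. With 1 array left out, its difference was -0.20 (without Satb1-/- replicate 1-1 or WT replicate 1) to -0.02 (without Satb1-/- replicate 1-2), and that of Sall4 was -0.0047 (without Satb1-/- replicate 1-1) to 0.15 (without Satb1-/- replicate 1-2). In the fit with all arrays, the upper ends of both intervals lay under the difference of each factor that rose. The interval of Sall4 still overlapped that of Esrrb (0.31 to 0.81), and the limma fit did not test one factor against another.

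The factors did not move by array in one pattern. Among WT arrays, replicate 3 was the highest for 6 of the 10 factors and the lowest for 2, and replicate 1 was the lowest for 4 and the highest for 0. Among Satb1-/- arrays, 1-1 was the highest for 6 and 1-2 the lowest for 6, and 2-1 lay between the other two for 8 of 10. The SD was larger in WT than in Satb1-/- for 7 of 10 factors, as it was for 68.4% of all genes and 76.9% of those above the median level. The most alike pair among the factors that rose was Tfcp2l1 and Prdm14, whose mean-centred profiles over the 6 arrays had a root mean square distance of 0.18 log2. The least alike pair of all was Pou5f1 and Tbx3 (1.02).

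Because selection acted on the Oct4 locus in both genotypes, each factor was also set against Pou5f1 on the same array. Relative to Pou5f1, all 9 other factors were higher on average in Satb1-/-, from 0.28 (Zfp42) to 1.98 (Tbx3), and for 8 of 9 the groups did not overlap. That all 9 were higher follows from the choice of Pou5f1, which had the lowest difference of the 10 factors (-0.39). The groups of Sall4 and Nr0b1, which overlapped on their own scale, did not overlap on this one. The share of all genes whose groups do not overlap on this scale was not computed, so 8 of 9 cannot be set against it. The factors that rose differed from Pou5f1 in their change by 0.95 (Esrrb), 1.27 (Tfcp2l1), 1.48 (Prdm14), 1.71 (Nr5a2) and 1.98 log2. Of the factors that did not pass, Nr0b1 had 1.14, Sox2 0.69, Sall4 0.47 and Zfp42 0.28. The exact permutation test over the 20 regroupings of the arrays, two-sided, gave p = 0.1 for each of the 8, the smallest it can give with 3 against 3, and 0.1125 after Benjamini-Hochberg adjustment over 9 comparisons. For Zfp42 the exact test gave p = 0.3. None could pass a threshold of 0.05 in this design.

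Nr5a2 minus Pou5f1 read -1.83, -2.25 and -2.07 on Satb1-/- arrays, against -3.76, -3.72 and -3.79 on WT arrays. Its SD was 0.21 in Satb1-/- and 0.03 in WT, whereas the other 8 factors had WT SDs of 0.22 to 0.56 relative to Pou5f1. Relative to Sox2 in place of Pou5f1, the 5 factors that rose were still higher, by 0.26 (Esrrb) to 1.29 (Tbx3), with groups that did not overlap, and each of these had an exact p of 0.1. In all, 6 of 9 factors were higher relative to Sox2, and for 7 of 9 the groups did not overlap. The share of all genes was not computed for this scale either. Zfp42 (-0.41) and Pou5f1 (-0.69) lay lower with groups that did not overlap, each with an exact p of 0.1. The groups of Nr0b1 (0.45, exact p = 0.4) and Sall4 (-0.22, exact p = 0.3) overlapped.

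**Figure D2:**
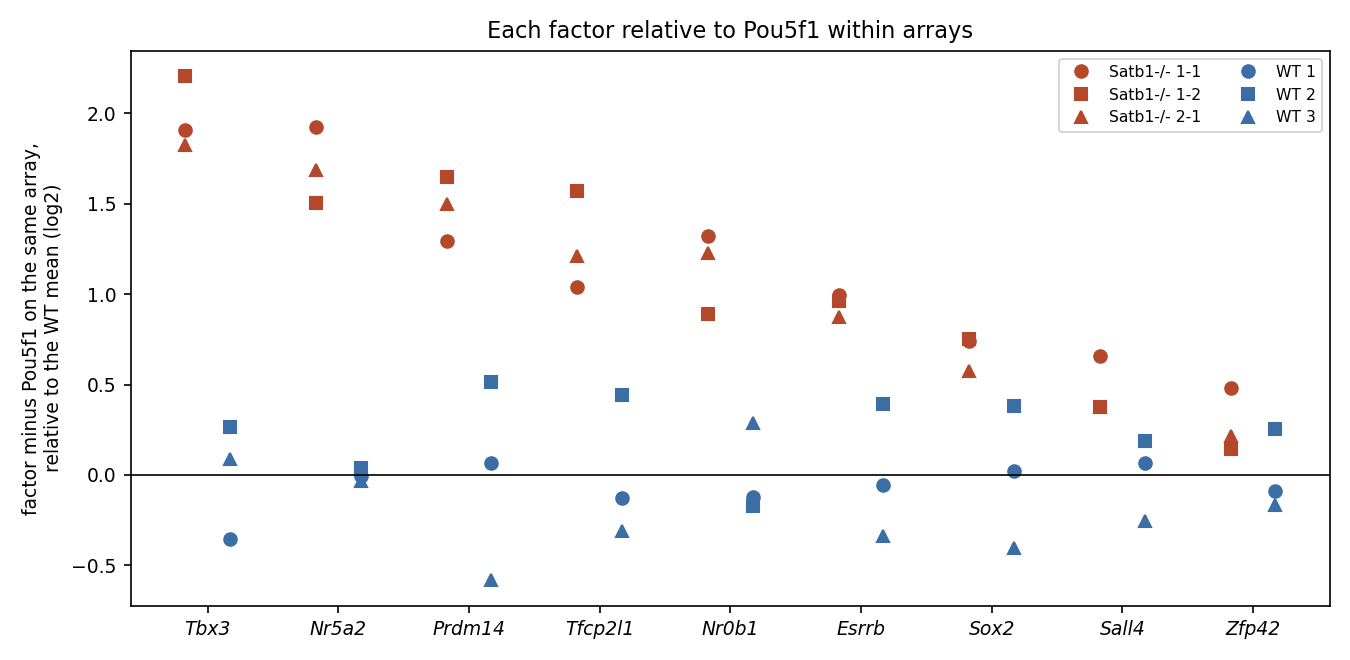
Log2 value of each factor minus that of Pou5f1 on the same array, relative to the WT mean of that difference, with Satb1-/- arrays left and WT arrays right in each column. The Satb1-/- arrays lie above the WT arrays for 8 of 9 factors, and Zfp42 overlaps. Pou5f1 itself was lower on the Satb1-/- arrays.

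The factors lie on 8 chromosomes, with Prdm14, Tfcp2l1 and Nr5a2 all on chromosome 1. To see whether nearby genes differed too, each factor was set beside its 10 nearest tested genes on either side, in RefSeq order. The 20 neighbours had medians of -0.03 for Tbx3, 0.02 for Nr5a2, 0.04 for Prdm14, 0.05 for Tfcp2l1 and -0.02 for Esrrb. Each of these 5 factors lay above all 20 of its neighbours. This was close to fixed beforehand, because the 5 are those that passed, and Esrrb, the lowest, stood at percentile 98.5 of all differences. Of 200 neighbours in all, 3 passed the threshold (1.5%, against 1.4% of all genes in either direction). Slco5a1, an organic anion transporter family gene next to Prdm14, averaged 5.38 in Satb1-/- and 4.42 in WT (0.96, limma adjusted p = 0.0101). Inhbb, which encodes an activin subunit, lies 2 tested genes from Tfcp2l1 and averaged 6.04 in Satb1-/- and 5.55 in WT (0.49, limma adjusted p = 0.049). Pcm1 near Zfp42 averaged 8.36 in Satb1-/- and 8.97 in WT (-0.62, limma adjusted p = 0.0348). These 3 were named after their values were seen.

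Zfp42 is the factor on a chromosome with a median below 0. On chromosome 8, 7.73% of 569 genes above the median level were higher in Satb1-/-, and their median difference was -0.29. The 7 such genes among the neighbours of Zfp42 had a median of -0.25, and Zfp42 itself stood at -0.11. For the other 9 factors the chromosome medians lay between 0.02 and 0.05. Nr0b1 on the X chromosome had neighbours with a median of -0.03, and those of Pou5f1 had -0.05.

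**Figure D3:**
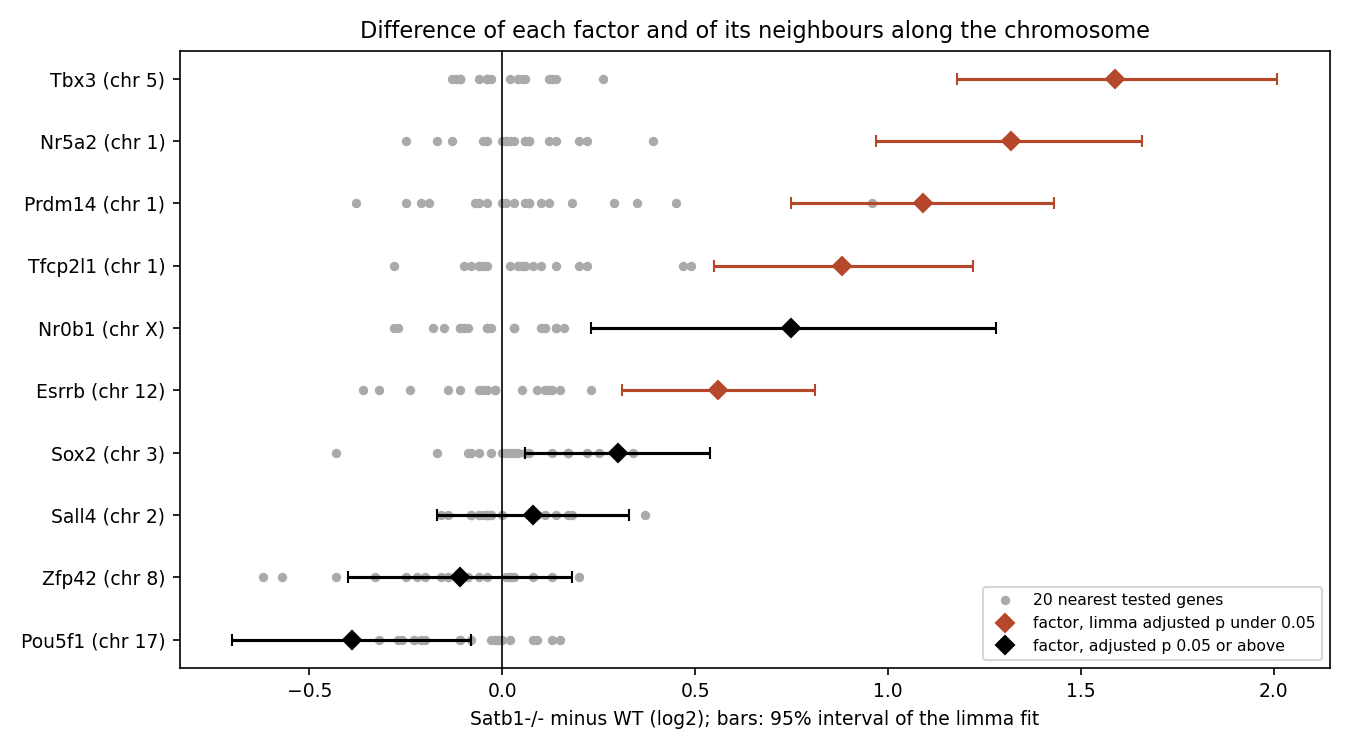
Difference between Satb1-/- and WT (log2) of each factor with its 95% interval from the limma fit (diamonds; red, adjusted p under 0.05) and of its 20 nearest tested genes (grey points). Tbx3, Nr5a2, Prdm14, Tfcp2l1, Nr0b1 and Esrrb lie above all their neighbours, Pou5f1 lies below all of its own, and Sox2, Sall4 and Zfp42 lie among theirs.

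The genes most like each factor that rose, by the root mean square distance of mean-centred profiles over the 6 arrays, were at distances of 0.04 to 0.22 log2. For Esrrb they were Ap3b1, Papolg and Ampd3, and for Tfcp2l1 they were Htra1, Rel and Gabarapl1. Ddx47, Etv6 and Emg1 were nearest to Nr5a2, and Tpi1, Zfp318 and Ncapd2 to Prdm14. Tbx3 had Pex5, Khdc3 and Elobl. Of these 15 genes, 11 passed the threshold themselves and 7 lie on chromosome 6. That chromosome held 5.54% of the genes with a place in RefSeq, but 74 of the 183 such genes that rose (40.4%), and none of the 10 factors. With 6 arrays in 2 groups, the measure takes in the size of the group difference.

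Of 37 other measured genes of the pluripotency network, 4 rose and 0 fell, with a median difference of 0.08. Nanog, the homeobox factor that binds Esrrb and other genes of the network, read 10.95 ± 0.04 in Satb1-/- and 9.87 ± 0.15 in WT (SD, n = 3 each; 1.09, limma adjusted p = 0.00109). Klf4 (0.97, limma adjusted p = 0.0483), Klf5 (0.60, limma adjusted p = 0.0166) and Dppa3 (0.67, limma adjusted p = 0.0485) rose too. Nanog and Dppa3 lie on chromosome 6. The third Kruppel-like factor of the naive state, Klf2, read 8.40 ± 0.08 in Satb1-/- and 8.32 ± 0.08 in WT (SD, n = 3 each; limma adjusted p = 0.909), on chromosome 8. At an unadjusted p under 0.05, 13 of the 37 differed, in both directions. Differences of the list ran from -1.07 for Lefty1, a Nodal antagonist (limma adjusted p = 0.147), to that of Nanog. Zfp57, a zinc-finger factor that maintains imprints, stood at 0.72 (limma adjusted p = 0.0558) and Nacc1 at -0.49 (limma adjusted p = 0.165), whereas Utf1 (-0.01) and Tdgf1 (-0.06) lay near 0.

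A list of signal genes upstream of the factors showed 2 rises and 0 falls among 24 measured, with a median of 0.20. It mixes ligands and receptors with genes that respond to the LIF, Wnt, BMP and FGF pathways. Bmp4, a growth factor that supports ES cell self-renewal with LIF, read 7.51, 7.11 and 7.34 on Satb1-/- arrays, against 6.24, 6.08 and 6.24 on WT arrays (1.14, limma adjusted p = 0.00148). Socs3, a feedback inhibitor and target of STAT3, differed by 0.60 (limma adjusted p = 0.0287). Stat3 itself (0.21), the LIF receptor gene Lifr (0.27) and Tcf7l1 (0.41) did not pass. Neither did Id1 (-0.07), Id2 (0.17) and Id3 (-0.08), which respond to BMP, nor Axin2 (-0.11), which responds to Wnt. Of the FGF pathway genes in the list, Spry2 (0.50), Dusp6 (0.35), Spry4 (0.28) and Fgfr2 (0.08) were higher and Fgfr1 (-0.21) was lower, and none passed. The activity of these pathways was not tested. Of 28 genes for reported protein partners of the factors, such as NuRD subunits that bind Sall4 and the Prdm14 partner Cbfa2t2 (0.21), 0 passed in either direction by limma (7 at an unadjusted p under 0.05), and their median was 0.09, with differences of -0.26 to 0.60. Ncoa3, a coactivator of Esrrb, differed by 0.26 (limma adjusted p = 0.336).

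Of 27 measured paralogs of the factors 1 rose, Sox21, a relative of Sox2 (6.11 ± 0.04 in Satb1-/- and 5.57 ± 0.12 in WT, SD, n = 3 each; limma adjusted p = 0.0358), 0 fell, and the median was -0.05. Tbx2 (-0.12) and Tbx5 (0.12), relatives of Tbx3, Nr5a1 (-0.02), relative of Nr5a2, Esrra (-0.22) and Esrrg (-0.10), relatives of Esrrb, and Tfcp2 (-0.10), relative of Tfcp2l1, did not pass. Neither did Grhl3, a grainyhead relative of Tfcp2l1, and Sox15, whose groups did not overlap with Satb1-/- higher (0.60 and 0.39, limma adjusted p = 0.19 and 0.312). Groups lay so for 8.18% of all genes. Of 16 primed epiblast genes, markers of a later epiblast state, 1 fell and 0 rose, with a median of -0.09 and 7 of 16 higher on average in Satb1-/-. The gene that fell was Dnmt3a, a DNA methyltransferase gene (7.04 ± 0.24 in Satb1-/- and 7.98 ± 0.36 in WT, SD, n = 3 each; limma adjusted p = 0.0358). Dnmt3b, a gene repressed by Prdm14, differed by -0.51 with groups that overlapped (limma adjusted p = 0.332), and a link to Prdm14 was not tested. Larger differences that did not pass lay on both sides, with Otx2 at -1.29 (limma adjusted p = 0.128) and Igfbp2 at 0.99 (limma adjusted p = 0.0771).

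**Figure D4:**
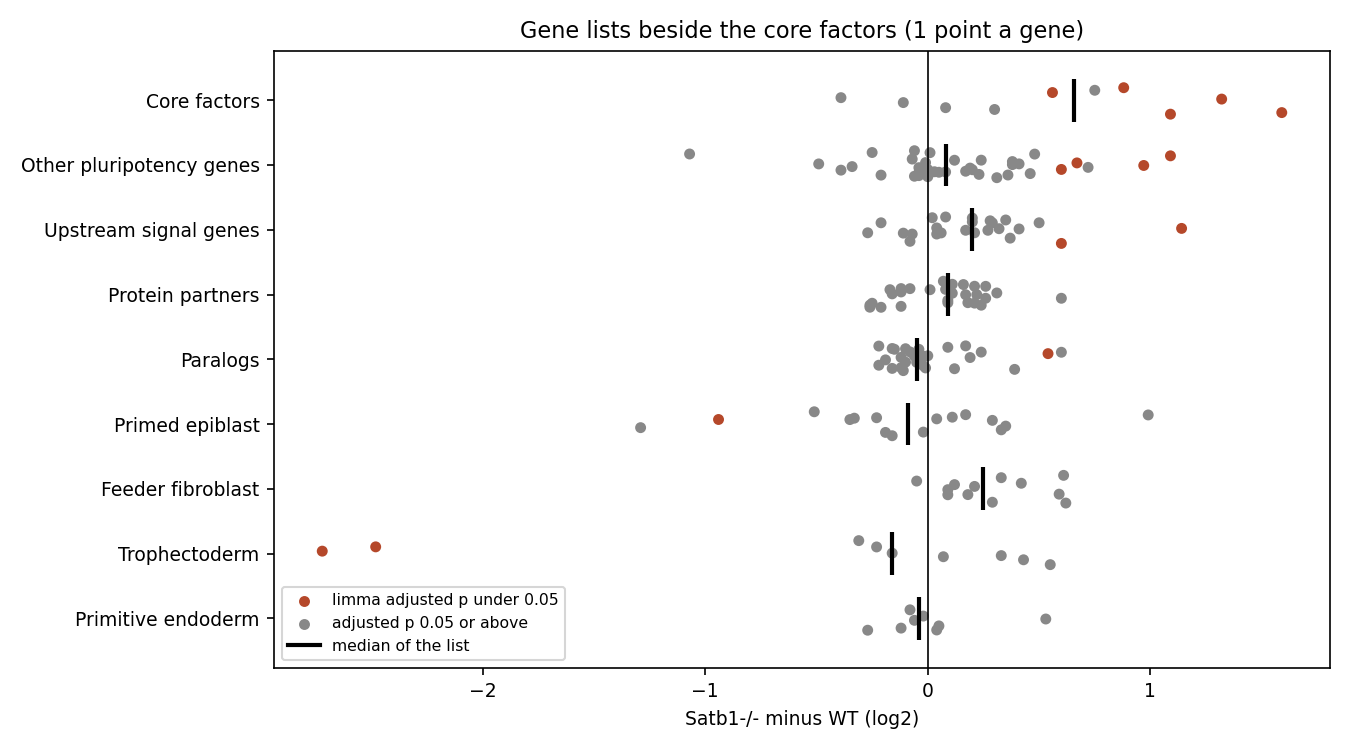
Difference between Satb1-/- and WT (log2) for the 10 core factors and 8 other gene lists, 1 point a gene, with limma adjusted p under 0.05 in red and the median of each list as a bar. The core factors have a median of 0.66, and the other lists have medians between -0.16 and 0.25.

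Markers of other cells are given as measured facts beside these results, on a scale where no gene reads 0. The 12 feeder fibroblast markers had a median difference of 0.25, 11 of 12 were higher on average in Satb1-/-, and 0 passed by limma (4 at an unadjusted p under 0.05). Of all 19938 genes, 9679 were higher on average, and of the 9969 above the median level, 5375 were. At an unadjusted p under 0.05, 10.5% of all genes differed. The mean level of the 12 feeder markers was 6.72 to 6.94 on Satb1-/- arrays and 6.38 to 6.78 on WT arrays, lowest on WT replicate 3. Single differences ran from -0.05 (Tagln) to 0.62 (Thy1). Postn had 0.61, Dcn 0.59, Col1a2 0.42 and Fbln2 0.33, and Col1a1 had 0.12, at 8.07 ± 0.10 in Satb1-/- and 7.95 ± 0.20 in WT (SD, n = 3 each). The 9 trophectoderm markers had a median difference of -0.16, with 4 of 9 higher on average in Satb1-/-. Of these 2 fell, the keratins Krt8 (-2.72) and Krt18 (-2.48), which read highest on WT replicate 3 (10.09 and 9.66). The mean level of the 9 was 5.60 to 5.77 on Satb1-/- arrays and 5.99 to 6.49 on WT arrays. Without the keratins, a choice made after seeing the values, that of the other 7 was 5.41 to 5.54 on Satb1-/- arrays and 5.30 to 5.52 on WT arrays, with a median difference of 0.07. Among these, Eomes (0.55, limma adjusted p = 0.068), Tead4 (0.43) and Tfap2c (0.33) had groups that did not overlap with Satb1-/- higher, as 8.18% of all genes did. Tead4 lies on chromosome 6. Cdx2, the defining factor of the trophectoderm, averaged 4.37 in Satb1-/- and 4.60 in WT. The 8 primitive endoderm markers had mean levels of 4.85 to 5.03 on Satb1-/- arrays and 4.82 to 5.06 on WT arrays. Of 7 germ layer markers 1 fell, Nes (-0.58). The part of these cells in the differences of the factors was not tested.

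**Figure D5:**
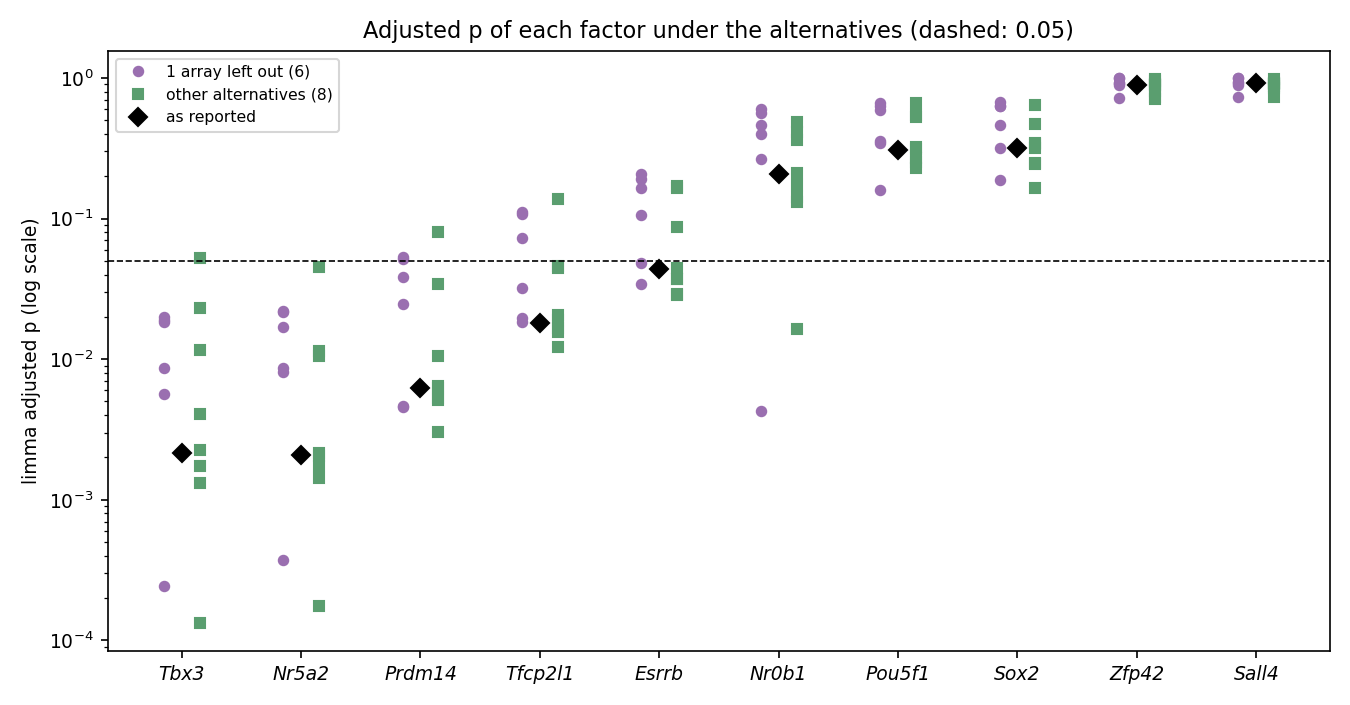
Limma adjusted p (log scale) of each factor as reported (diamonds), with 1 array left out (circles) and under 8 other alternatives (squares); the dashed line is at 0.05. Nr5a2 stays under the line throughout, Tbx3 crosses it once at 0.0526, and Pou5f1, Sox2, Zfp42 and Sall4 stay above it.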

How the data were processed

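RNA of 6 ES cell samples was hybridised to 1-colour arrays. The deposited values are log2 expression per probe set, made by the authors with RMA, per the submitters' processing notes; neither version nor settings are given in those notes. RMA is meant to bring arrays to one distribution, so a shift common to all genes would largely not show, and background compresses the differences of dim genes. The table held 35557 probe sets and no missing value. Array medians still ran from 4.69 to 4.85, so small shifts between whole arrays remained. Arrays have no read depth, and their number limits the precision.

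Gene names came from the platform annotation. Of all probe sets 21789 had 1 gene symbol, 1621 had several and 12147 had none, and only the first kind was used. Where a gene had several probe sets the brightest over the 6 arrays was kept, which left 19938 genes. Gene order and promoter windows came from RefSeq (GRCm38.p6), in which 19853 genes had a match by Entrez ID. No source used here names the build of the array design.

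Satb1-/- and WT were compared in limma 3.58.1 under R 4.3.3, by lmFit and eBayes without covariates or a filter on dim genes, with Benjamini-Hochberg adjustment over all genes at 0.05. Differences are Satb1-/- minus WT. The limma fit was tested on simulated arrays in which some genes were changed by known amounts. Within-array differences used two-sided exact permutation tests. Alternatives were leaving out each array, averaging clones 1-1 and 1-2, other scalings, array weights, a filter on dim genes, other uses of probe sets and another variance prior. The rule for named genes took the 10 factors, the 3 most alike genes of each that passed, up to 4 passing members of each list, Satb1, Nanog, Klf2, Klf4 and Klf5; others are given as examples of their lists, chosen after their values were seen. The factors and lists were chosen with earlier results of these data known.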

Additional observations from a re-analysis of the deposited data

How the results depend on the processing

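Each factor that rose kept its direction in all 14 alternatives, and so did the 5 that did not pass, except Sall4, whose difference was -0.0047 without Satb1-/- replicate 1-1 and otherwise up to 0.15 with 1 array left out. Of the 5 calls, that of Nr5a2 held in 14 of 14 alternatives, that of Tbx3 in 13, Prdm14 in 11, Tfcp2l1 in 10 and Esrrb in 7. The number of factors that rose was 1 over all probe sets, where more tests are adjusted for, and 2 to 6 with 1 array left out, and the number that fell was 0 throughout. Over all genes, 184 rose and 95 fell, against 74 to 356 and 19 to 124 with 1 array left out, 90 and 27 with clones 1-1 and 1-2 averaged, 116 and 30 with each array centred on its median, 373 and 235 with array weights, 68 and 15 over all probe sets, and 236 and 148 after a second quantile normalisation. The cause of these shifts was not tested. Relative to Sox2 in place of Pou5f1, Zfp42 and Sall4 turned from higher to lower (-0.41 and -0.22). No paired analysis was possible because the arrays of the 2 genotypes share no replicate numbers. Esrrb, with the smallest difference of the factors that rose (0.56), lost its call in the most alternatives.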
